A study of Schizosaccharomyces pombe with 28 samples.

Results

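The level of H3K4me2, dimethylated lysine 4 of histone H3, over open reading frames (ORFs) was compared between swm1Δ and wild-type (wt) cells of the fission yeast Schizosaccharomyces pombe. All ORF features of the arrays that set these strains against each other for this mark were taken, which gave 4881 ORFs of the 5917 features on an array; the rest were 870 control, 150 missing and 16 intergenic or intronic features. The comparison rests on 2 of the 28 samples of a study of Swm1 and Swm2, the S. pombe homologues of mammalian LSD1. Chromatin immunoprecipitated (IP) with an antibody against H3K4me2 was hybridised to 2-colour spotted arrays (ChIP-chip), swm1Δ in one dye and wt in the other. Array C1 carried swm1Δ in Cy3 and wt in Cy5, array C2 carried swm1Δ in Cy5 and wt in Cy3, and each came from its own ChIP samples. In the swm1Δ strain the ORF had been replaced by a cassette that gives resistance to the antibiotic Clonat, while the further genotype of the wt strain on these arrays is not given in the sources used here. Each ORF was spotted at 2 places on an array, so it had 4 data points, and all values are log2 ratios of swm1Δ over wt, where 1 stands for a ratio of 2.0. An IP was set against another IP with no input DNA on the array, so more H3K4me2 per nucleosome, more nucleosomes and more copies of the DNA cannot be told apart. The ratios are also centred on each array, so a change shared by all ORFs would not be seen.

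H3K4 methylation is placed by the Set1 complex and is known as a mark of transcribed genes, with trimethylation near the start and dimethylation further into the body of the gene. LSD1 is a flavin-dependent amine oxidase that takes methyl groups off mono- and dimethylated lysines, in mammals mainly H3K4. In S. pombe, Swm1 and Swm2 carry the SWIRM and amine oxidase domains of this family, and Swm1 is found in complex with Swm2 and the PHD finger proteins Swp1 and Swp2. The study reports that purified Swm1 and Swm2 complexes showed no H3K4 demethylase activity in vitro. Their substrate in those assays was a different methylated lysine of the same histone. Whether the ratios given here reflect a direct action of Swm1 on H3K4 was not tested.

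The deleted ORF itself served as a check of the labels. The swm1 ORF (SPBC146.09c, named lsd1 by RefSeq) had log2 ratios of −4.15 and −3.94 at its spots on C1 and of −3.54 and −3.99 on C2. It was the lowest of all ORFs, with a mean of −3.90 ± 0.20 (SD, n = 2 arrays; limma adjusted p = 2.7e-10), and its signal stood at the 0.594 and 0.492 percentile of ORFs in the swm1Δ channel, against 48.2 and 52 in wt. The feature of the same name for the intergenic region (IGR), read as samples of their own from slides with the same numbers, gave −2.39 and −2.29. Of the auxotrophic marker genes commonly used in S. pombe strains, lys1 was higher in swm1Δ (1.27 and 0.70; adjusted p = 0.004), and none of the other 5 measured was called. Values for ura4 (0.81 and 0.01), leu1 (−0.35 and −0.62) and ade6 (−0.61 and 0.10) did not pass the test. The signal of ura4 was among the lowest in both strains, so its ratio says little. It stood at the 2.29 and 2.03 percentile in swm1Δ on C1 and C2, against 0.84 and 2.05 in wt.

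Of the Swm1 partners, swp1 alone was called. The ORF of swp1 (SPCC4G3.07c, a PHD finger protein) was raised, with 1.69 on C1 and 1.37 on C2 (mean 1.53 ± 0.23; adjusted p = 1.5e-04). The ORF of swm2, the other amine oxidase, had −0.55 and −0.15 (adjusted p = 0.247), and swp2, the other PHD finger protein, had 0.04 and 0.57 (adjusted p = 0.325). Neither of these passed the test, and swp1 lies within a stretch of raised ORFs on chromosome III.

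By the cut-off of the study's methods, which asks for a ratio of 2.0 or more in 3 or 4 of the 4 data points, 160 ORFs were raised in swm1Δ (3.28% of the ORFs) and 102 were lowered (2.09%). Of these, 101 raised and 57 lowered ORFs passed in all 4 data points. A limma test of the array means against 0 called 813 ORFs higher (16.7%) and 668 lower (13.7%) at an adjusted p under 0.05, and all 160 and all 102 ORFs were among them. Over ORFs, C1 and C2 correlated with r = 0.70 (Pearson) and rho = 0.69 (Spearman). These are descriptions of ORFs, which are not independent replicates. On both arrays 1822 ORFs lay above 0 and 1919 below 0, and no ORF was past the cut-off in opposite directions on C1 and C2. The median gap between the arrays was 0.31, against a 5th to 95th percentile range of the means of −0.91 to 0.97. Without C1 the cut-off was passed by 241 raised and 156 lowered ORFs, and without C2 by 290 and 218, each time in both spots of the remaining array. With median centring in place of loess limma called 766 ORFs higher and 491 lower, and with median centring and no background correction together 133 and 46.

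**Figure D1:**
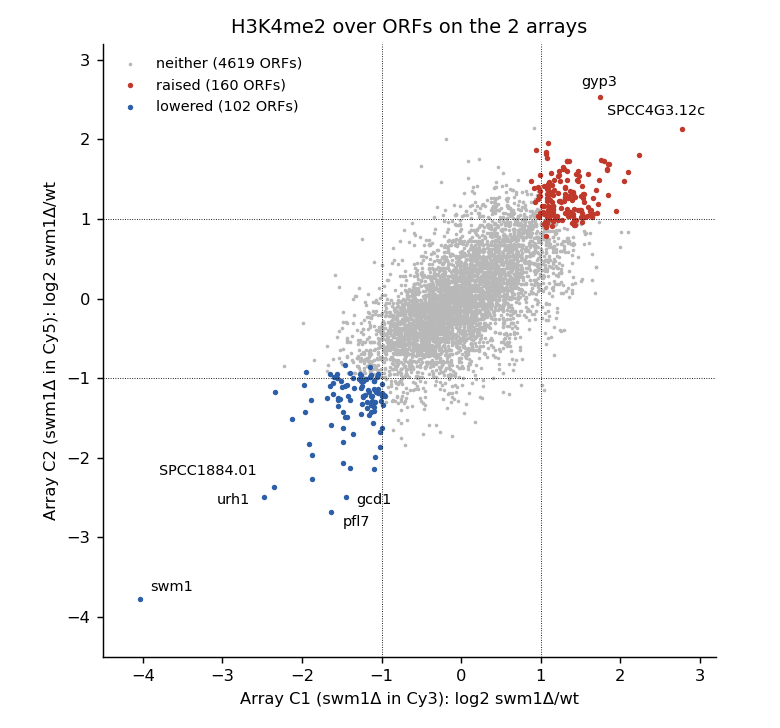
Each point is an ORF, with its mean log2 ratio of swm1Δ over wt on array C1 (horizontal axis) against that on array C2 (vertical axis); red points are the 160 raised and blue points the 102 lowered ORFs, and dotted lines mark a ratio of 2.0 in either direction. The swm1 ORF lies alone at −4.04 and −3.77, and the other ORFs form a cloud along the diagonal (Pearson correlation 0.70 with swm1 included).

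The 160 raised ORFs had a median of 1.28 on C1 and 1.24 on C2, and their means ranged between 0.93 and 2.46. In the swm1Δ channel their median signal stood at the 76.5 and 78.2 percentile of all ORFs on C1 and C2, against the 33.8 and 36.1 percentile in wt. The 102 lowered ORFs had a median of −1.25 and −1.22, and their signal stood at the 20.9 and 18 percentile in swm1Δ, against the 61.7 and 58 percentile in wt. These percentiles describe ORFs chosen by the same ratio and add no support to it. By signal, raised ORFs thus ranked high in swm1Δ and in the lower part in wt, and lowered ORFs ranked low in swm1Δ and above the middle in wt.

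Of the 12 raised ORFs with the largest mean, 6 lay in the stretch on chromosome III: SPCC4G3.12c, gyp3, SPCC306.11, mdj1, coy1 and psk1. Outside it, bip1, the Hsp70 chaperone of the endoplasmic reticulum, had 1.83 and 1.86 at its spots on C1 and 1.62 and 1.77 on C2 (mean 1.77 ± 0.11; adjusted p = 3.3e-05). All 4 data points lay close together, though both spots on C2 were saturated, which leaves their ratio uncertain. The signal of bip1 stood at the 99.6 and 99.4 percentile in swm1Δ, against the 76 and 64.1 percentile in wt. SPAC186.07c, annotated as a hydroxyacid dehydrogenase, had 2.04 and 1.48 (adjusted p = 4.1e-05). The ORF of pxl1, a paxillin-like protein of the division site, had 1.79 and 1.73 (adjusted p = 3.3e-05). The ORF of wee1, the kinase that holds Cdc2 inactive before mitosis, had 1.83 and 1.63 (adjusted p = 3.9e-05). SPCC1393.12, an uncharacterized protein, had 1.73 and 1.49 (adjusted p = 8.4e-05). A feature named ptr2 on the array, which matched no single gene of the RefSeq table, had 1.86 and 1.69 (adjusted p = 3.3e-05). Its wt signal was among the lowest, at the 2.38 and 3.42 percentile on C1 and C2, against 30.7 and 37.7 in swm1Δ, which makes its ratio less certain. For each of these ORFs both arrays lay well above the cut-off.

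Further raised ORFs fell into enzymes, carriers and regulators. Among the enzymes, pfk1, the phosphofructokinase of glycolysis, had 1.33 and 1.73, and met26, the methionine synthase, had 1.09 and 1.96. The ORFs of pyk1, pyruvate kinase, at 1.26 and 1.21, and of erg1, squalene monooxygenase of the sterol pathway, at 1.62 and 1.10, were raised as well. Among the carriers, itr1, which takes up myo-inositol, had 1.07 and 1.84, and the potassium transporter trk2 had 1.17 and 1.37. Among the regulators, the transcription factors pho7 (1.85 and 1.30), rsv2 (1.28 and 1.66) and pcr1 (1.31 and 1.39), the partner of Atf1 in the stress response, were raised. The mitochondrial chaperone mcp60, an Hsp60, had 1.47 and 1.48, among the smallest gaps between the arrays. By contrast mef1, a mitochondrial elongation factor, had 2.10 on C1 and 0.84 on C2 and gas5, a glucan-modifying enzyme of the cell wall, had 2.00 and 0.65, so limma called both higher (adjusted p = 5.4e-04 and 0.001) but the cut-off was passed on C1 only. Saturated spots, whose ratio is uncertain, were present for 8 of the 160 raised ORFs, all on C2, and for 0 of the 102 lowered ORFs. Among ORFs named in the text, raised or not, both C2 spots were saturated for bip1, gas5, lys2, bis1 and pcl1, and 1 of 2 for mdj1 and itr1.

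The strongest regional feature was a stretch of chromosome III in which neighbouring ORFs were high together. When the 4612 ORFs with a place in the RefSeq gene table were put in chromosomal order, the window of 25 neighbouring ORFs between SPCC306.11 and SPCC364.02c (bis1) had a median of 1.34, with 1.40 on C1 and 1.27 on C2. The next highest windows that did not overlap it reached 0.52 on chromosome II and 0.47 on chromosome I. All 25 ORFs lay above 0 on both arrays, 12 were raised by the cut-off and 21 were called higher by limma. The ORFs not called were hdd1, rib2, vps3 and rpl1702, with means of 0.37, 0.30, 0.44 and 0.32. On the flanks the level dropped within a few ORFs, with medians of 0.22 over the 10 ORFs before the window and 0.28 over the 10 after it. The ORFs above 0 on both arrays continued to SPCC970.06, 31 ORFs in all. Without the window, chromosome III had a median of 0.02 over 816 ORFs, 26 of them raised.

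Within the window the highest ORF was SPCC4G3.12c, annotated as a ubiquitin ligase, with 2.78 and 2.13 (mean 2.46 ± 0.46; adjusted p = 9.7e-07). It stood at the 93.7 and 89.7 percentile of signal in swm1Δ, against the 17 and 26.2 percentile in wt. The GTPase-activating protein gene gyp3 followed with 1.74 and 2.53, SPCC306.11 with 2.24 and 1.81, and mdj1, a mitochondrial DnaJ protein, with 2.10 and 1.59. The annotated roles within the window were varied. They include the S6 kinase psk1 (1.83 and 1.62), the DNA repair proteins rhp42 (1.59 and 1.57) and mus81 (1.51 and 1.29), the histone chaperone nap1 (1.40 and 1.33), the serine synthesis enzyme ser3 (1.47 and 1.61), coq5 of ubiquinone synthesis (1.30 and 1.27) and swp1. Some members differed between the arrays, above all alp16 with 1.70 and 0.40 and SPCC4G3.03 with 0.91 and 2.15. The window was spotted in 12 print blocks of the array, and with the median of each block set to 0 its median was 1.43.

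**Figure D2:**
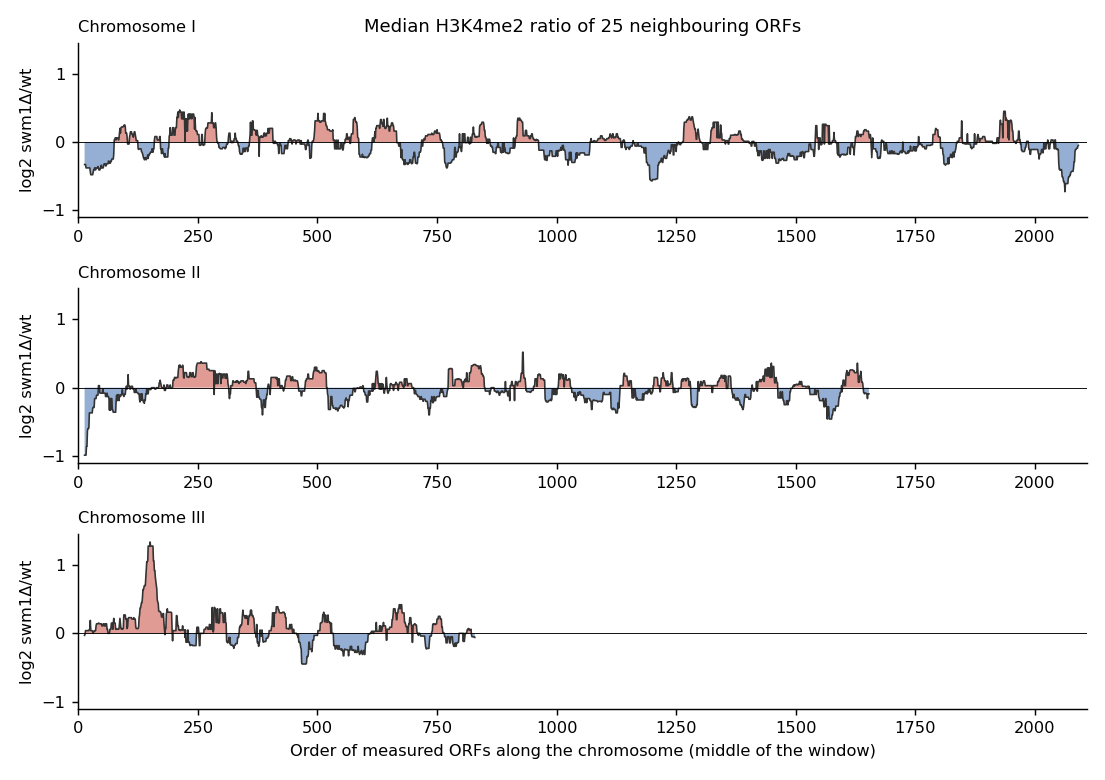
The median log2 ratio of swm1Δ over wt (vertical axis) is plotted for windows of 25 neighbouring ORFs along chromosomes I, II and III, with the order of the measured ORFs on the horizontal axis; red areas lie above 0 and blue areas below. The peak on chromosome III reaches 1.34 and the lowest window, at the left end of chromosome II, −0.99.

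The lowest window lay at the left end of chromosome II. The first 25 ORFs, SPBPB10D8.01 to SPBC1683.12, had a median of −0.99, with −0.81 on C1 and −1.10 on C2; 9 were lowered by the cut-off, 19 were called lower by limma and 0 higher. The ORF of urh1, a uridine hydrolase, had −2.48 and −2.49 (adjusted p = 6.6e-07), the lowest after swm1, and its signal stood at the 9.28 and 3.97 percentile in swm1Δ, against the 75.4 and 58.7 percentile in wt. The cell surface glycoprotein gene pfl7 had −1.63 and −2.68, and the hexose transporter ght4 had −1.88 and −1.96. The maltase mal1 (−1.13 and −1.22) and the alanine racemase alr2 (−1.21 and −1.21) were lowered too, while the ABC transporter abc3 (−1.01 and −1.22) and the ferric reductase frp1 (−0.75 and −1.56) were called by limma only. The transporter ORFs SPBPB10D8.04c, SPBPB10D8.05c, SPBPB10D8.06c and SPBPB10D8.07c had means between −0.99 and −1.21, but they are known as near-identical copies and share a coding length of 1140 bases, so their probes may not tell them apart. Within the same window pho841, icl1, pcl1, SPBC359.01 and SPBPB10D8.03 lay between −0.12 and 0.38 and were not called.

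**Figure D3:**
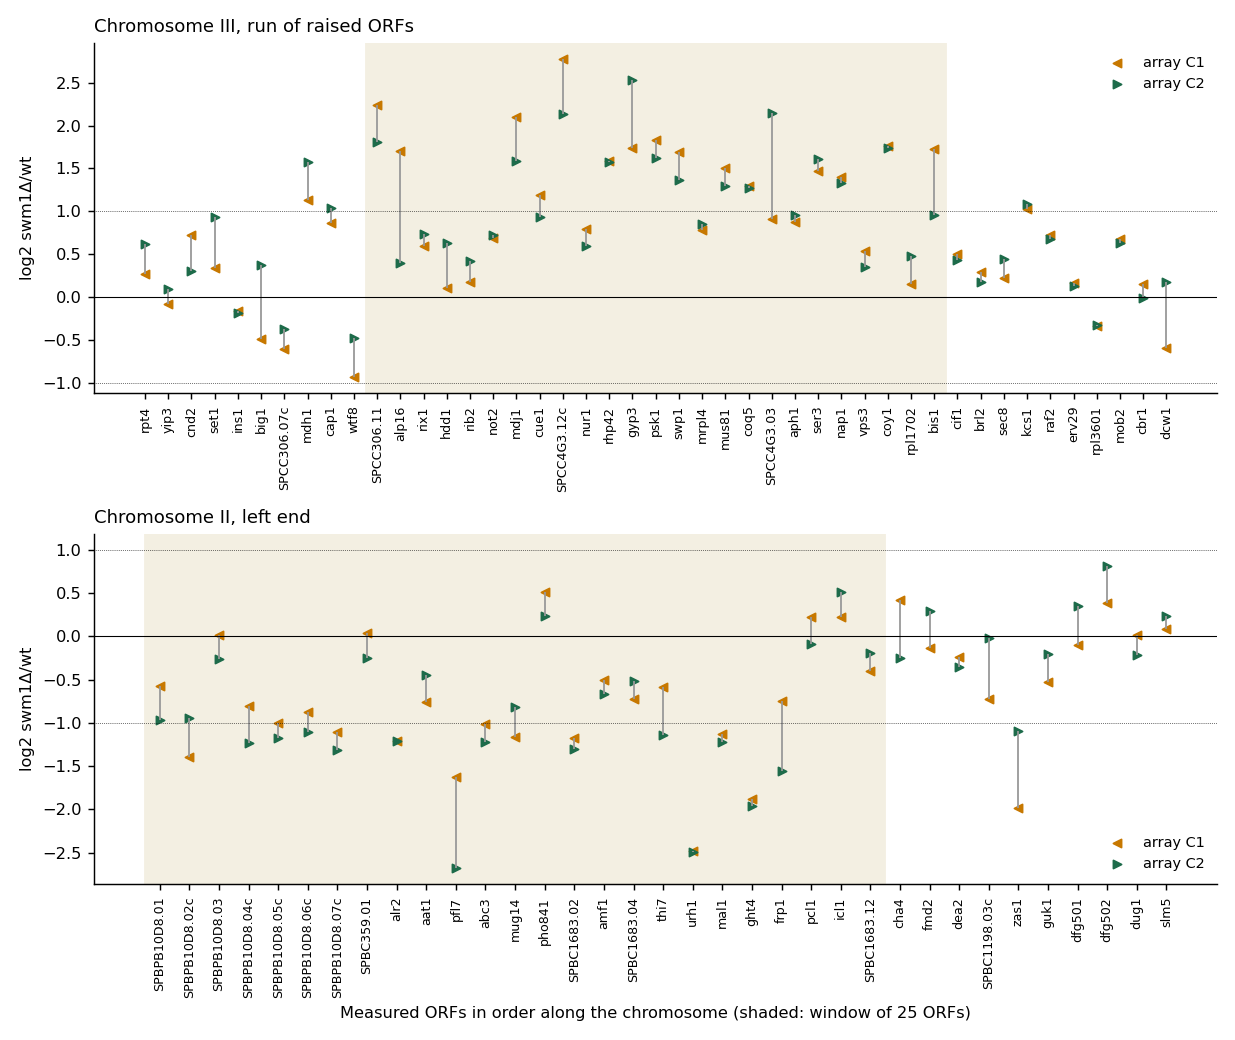
The log2 ratio of swm1Δ over wt (vertical axis) is shown on array C1 (left-pointing triangles) and array C2 (right-pointing triangles) for each ORF in chromosomal order (horizontal axis) around the highest window (upper panel) and the lowest window (lower panel), shaded, with dotted lines at 1 and −1. All 25 ORFs of the upper window lie above 0 on both arrays, while in the lower window 20 of 25 lie below 0 on both.

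Lowered ORFs were also found towards the ends of chromosome I. The second lowest window, SPAC29B12.05c to SPAC922.07c (atd2), had a median of −0.73, with 5 lowered ORFs and 13 called lower by limma. These included mmf2 (−1.91 and −1.83; adjusted p = 1.9e-05), the amino acid transporter isp5 (−0.99 and −1.62) and SPAC922.06, annotated as an acyl carrier protein reductase (−1.08 and −1.99). In the same window clr5, a silencing factor that was singled out after its values were seen, was raised with 1.31 and 1.28. Over the 40 ORFs nearest each chromosome end, the start of chromosome II had 22 ORFs called lower by limma (55%), the start of chromosome I 12 (30%) and the end of chromosome I 10 (25%), beside 13.7% of all ORFs. At the end of chromosome II and at both ends of chromosome III the medians were 0.03, 0.04 and −0.03. Over all 6 ends, 24 of 240 ORFs were lowered (10%) and 3 raised (1.25%), beside 2.09% and 3.28% of all ORFs.

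The ORFs of the mitochondrial genome, which carries no nucleosomes, were lowered as well. The cytochrome oxidase genes cox1 (−1.50 and −1.11) and cox2 (−1.95 and −0.92) and the cytochrome b gene cob (−1.51 and −1.03) were the 3 ORFs that matched a RefSeq gene of the mitochondrial genome, and each passed the cut-off (limma adjusted p = 4.7e-04, 4.6e-04 and 6.0e-04). What set these values was not tested.

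Of the 12 lowered ORFs with the smallest mean, swm1 among them, urh1, pfl7, ght4 and mmf2 lay in the lowest and second lowest windows. SPCC1884.01, an uncharacterized protein among the 40 ORFs at the start of chromosome III, had −2.35 and −2.37 (adjusted p = 9.7e-07). The ORF of alg6, a glucosyltransferase of protein N-glycosylation, had −1.88 and −2.26 (adjusted p = 8.8e-06). The ORF of gcd1, annotated as a glucose-6-phosphate dehydrogenase, had −1.45 and −2.49 (adjusted p = 3.3e-05), a wider gap between the arrays. SPAC27E2.11c (−2.12 and −1.51), mde6, annotated as a muskelin (−1.48 and −2.06), and SPAC11D3.03c (−1.40 and −2.13), among the 40 ORFs at the start of chromosome I, followed. The last of the 12 was a feature named X54421_sanger_27 on the array (−2.34 and −1.17). It matched no RefSeq gene and was not assigned to the nuclear or the mitochondrial genome. All of these lay below −1 on both arrays.

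The ratio followed the length of the ORF. Over the 4594 ORFs with a RefSeq coding length, its Spearman correlation with coding length was 0.45 on C1, 0.49 on C2 and 0.51 for their mean, as a description across ORFs that share libraries. When the ORFs were split into 10 length classes of like size, the shortest class, of 147 to 435 bases, had a median of −0.51, with 37.5% called lower by limma and 0.862% higher. The class of 1998 to 2721 bases had the highest median, 0.41, with 34.7% called higher and 4.15% lower. Correspondingly, the median coding length was 1863 bases for raised ORFs and 909 bases for lowered ORFs, against 1167 bases for all ORFs. The same-named IGRs showed no such trend, with Spearman correlations with the coding length of the ORF of 0.01 and 0.03 and medians between −0.07 and 0.04 in each class. The mean signal of a feature also moved with coding length (Spearman correlation −0.25), and its part in the trend was not tested. When the median of each length class was set to 0, 67 ORFs were raised, 50 of them among the 160, and 100 were lowered, 58 of them among the 102. By that measure the chromosome III window kept a median of 1.26 and the chromosome II window one of −1.11.

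**Figure D4:**
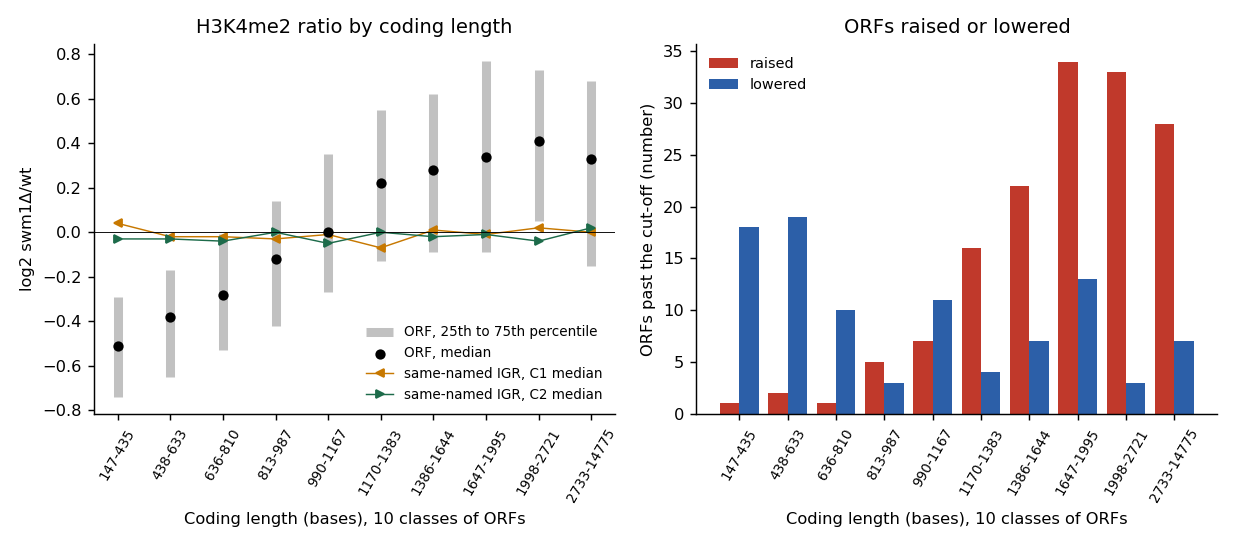
The left panel gives the median log2 ratio of swm1Δ over wt (points) with the 25th to 75th percentile (grey bars) in 10 classes of ORFs by coding length in bases, and the medians of the same-named IGRs on C1 and C2 (lines). The right panel gives the number of raised and lowered ORFs in each class; ORF medians run between −0.51 and 0.41 while IGR medians stay between −0.07 and 0.04.

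Groups of genes are described by how many of their measured members limma called, beside 16.7% higher and 13.7% lower over all ORFs, and by their median, beside −0.02 over all ORFs. Since length moved with the ratio, the plot of the lists also gives the median after subtracting that of ORFs of the same length class, and the text gives it where it changed a direction or a size most. Among the genes of chromatin, ATP-dependent remodellers stood highest: 6 of 11 were higher and 0 lower, with a median of 0.66 and of 0.38 less that of the length class. The Snf2-type ATPase fft1 had 0.94 and 1.10, the RSC ATPase snf21 had 1.08 and 0.95, fft2 had 0.91 and 0.76 and ino80 had 0.75 and 0.68. Of 12 genes of H3K4 methylation, 2 were higher and 1 lower, with a median of −0.01. The methyltransferase set1 itself had 0.34 and 0.94 (adjusted p = 0.044), the JmjC-family protein msc1 had 0.86 and 0.57 (adjusted p = 0.022), and swd2, a subunit of the Set1 complex, had −0.92 and −0.53 (adjusted p = 0.022). With median centring none of these 3 was called, and in the deposited ratios set1 was not. Of 22 genes of heterochromatin and RNAi, 2 were higher and 2 lower, with a median of 0.16 that became −0.08 less that of the length class. Among them arb2, an Argonaute-binding protein, had −0.68 and −1.52 and the deacetylase sir2 had −1.14 and −0.33, while raf2 of the Clr4 complex had 0.72 and 0.68. The call of sir2 was lost with median centring, and that of raf2 with print block medians set to 0. Of the 10 core and variant histones measured, 0 were higher and 1 was lower, the centromeric histone cnp1 with −0.94 and −0.69, and their median of −0.15 became 0.35 less that of the length class.

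Genes of regulation and cell division follow, beside the same 16.7% and 13.7%. Of 88 ORFs whose product names a protein kinase, 28 were higher and 5 lower (median 0.31, and 0.08 less that of the length class), with srk1, a kinase of the stress response, at 1.62 and 0.82 and gsk31 at 1.22 and 1.33. Of 107 ORFs whose product names a transcription factor, 29 were higher and 9 lower (median 0.27, and 0.13 less that of the length class). Of 29 genes named cdc, 9 were higher and 0 lower (median 0.11), among them cdc48, an ATPase of ubiquitin-dependent breakdown, at 1.63 and 1.06, cdc1, a subunit of DNA polymerase delta, at 1.56 and 1.03, and the mitotic cyclin cdc13 at 1.26 and 1.14. Of 31 DNA repair genes 6 were higher and 3 lower, at 19.4% near the share of all ORFs for higher calls, with the SNF2-family helicase rhp26 at 0.97 and 1.04 against the nuclease rad13 at −0.74 and −1.07. Of 18 proteasome genes, 3 were higher (16.7%, the share of all ORFs) and 0 lower (median 0.30). With median centring the lower calls were 5 of transcription factors, 3 of protein kinases and 1 of DNA repair genes.

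Genes of metabolism are likewise given beside 16.7% higher and 13.7% lower over all ORFs. Of 14 genes of glycolysis and fermentation 4 were higher (28.6%) and 0 lower: pfk1, pyk1, pgi1 (1.22 and 0.99) and adh1 (1.03 and 0.26). The median of this list was 0.17, and 0.04 less that of the length class. Of 54 genes of amino acid biosynthesis 13 were higher and 3 lower (24.1% and 5.56%). The higher ones include ser3, met26, lys4 (0.97 and 1.35) and lys2 (1.61 and 0.70), but the median of the list, 0.02, was near that of all ORFs. Of 15 ergosterol genes, 3 were higher (erg1, erg7 and erg9) and 1, erg24, was lower (20% and 6.67%). Of 7 hexose transporters, ght4 and ght3 (−1.19 and −1.01) were lower and ght6 (0.69 and 0.64) was higher, a call lost with median centring, and the median of −0.18 became −0.52 less that of the length class. Of 65 ORFs with a transporter or permease product 17 were higher and 7 lower (26.2% and 10.8%). Of 199 oxidoreductases 31 were higher and 36 lower (15.6% and 18.1%), near the shares of all ORFs. Iron uptake genes gave 1 higher and 2 lower calls of 13 (7.69% and 15.4%). Phosphate, thiamine and uracil response genes gave 1 and 1 of 12 (8.33% each), and nitrogen starvation and amino acid uptake genes 0 and 3 of 13 (0% and 23.1%). The medians of these 3 lists were 0.08, 0.10 and −0.10, and −0.14, −0.05 and −0.38 less that of the length class.

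Stress genes were called in both directions, as were ORFs at large (16.7% higher and 13.7% lower). Of 23 core stress genes, 5 were higher and 5 lower (21.7% each). Their median was −0.02, that of all ORFs. The ORFs of pcr1 and the trehalose phosphatase tpp1 (mean 1.05 ± 0.07) were raised and that of gcd1 was lowered. The small membrane heat shock protein hsp9 had −1.23 and −0.98. Of 19 heat shock and chaperone genes 6 were higher and 3 lower (31.6% and 15.8%). Highest were bip1 and mcp60, and the Hsp90 co-chaperone aha1 had 0.83 and 0.86.

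Several groups of short ORFs had medians below that of all ORFs, and their calls are given beside 16.7% higher and 13.7% lower over all ORFs. Of 128 cytoplasmic ribosomal protein ORFs, 0 were higher and 20 lower (8 lower with median centring). The share called lower, 15.6%, was near that of all ORFs. Their median of −0.29 became 0.10 less that of the length class. Many of these genes come as near-identical pairs whose probes may not tell them apart. Of 42 mitochondrial ribosomal protein ORFs, 1 was higher and 5 lower (2.38% and 11.9%, the latter near the share of all ORFs), with a median of −0.36 that became 0.01. Of 92 ORFs with a mitochondrial product 4 were higher and 19 lower (4.35% and 20.7%, median −0.34, and −0.05 less that of the length class). Of 10 RNA polymerase II subunits, 1 was higher and 5 were lower (10% and 50%), with a median of −0.59 that became −0.12. The small subunit rpb9 was lowered at −1.63 and −1.59, while the large subunit rpb2 was higher at 0.74 and 0.67. Ribosome biogenesis genes gave 17 higher and 6 lower calls of 80 (21.2% and 7.5%), with utp13 of the small subunit processome at 1.37 and 1.09.

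Genes of meiosis, mating and the cell surface gave calls in both directions, as did ORFs at large (16.7% higher and 13.7% lower). Of 81 mug genes, found as raised in meiosis, 7 were higher and 18 lower (8.64% and 22.2%). Their median was −0.06, and −0.01 less that of the length class, at a median coding length of 774 bases. Of 28 further genes of meiosis and sporulation 5 were higher and 3 lower (17.9% and 10.7%, median −0.29). The meiotic axis gene rec10 had 1.06 and 1.07, against −0.88 and −1.03 for the recombination gene rec7. Of 18 mating genes 3 were higher and 4 lower (16.7% and 22.2%). The transcription factor ste11, which starts sexual differentiation, had 0.75 and 0.83, and the pheromone receptor mam2 had −0.86 and −0.68. With median centring mam2 was not called, and the lower calls of mating genes were 2. Of 19 genes of the cell surface 3 were higher and 6 lower (15.8% and 31.6%), with pfl7 the lowest, and with median centring these counts were 2 and 4. The wtf family of related sequences, with wtf1 annotated as truncated, had 2 lower calls of 12. The Tf2 retrotransposon ORFs, which are near-identical, had 1 higher call of 12, lost in the deposited ratios. The medians of these families were −0.16 and −0.12, and 0.11 and −0.37 less that of the length class. Only 5 of the 12 wtf ORFs and 11 of the 12 Tf2 ORFs had a coding length. For wtf the 2 medians are therefore of unlike sets and cannot be set against each other.

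**Figure D5:**
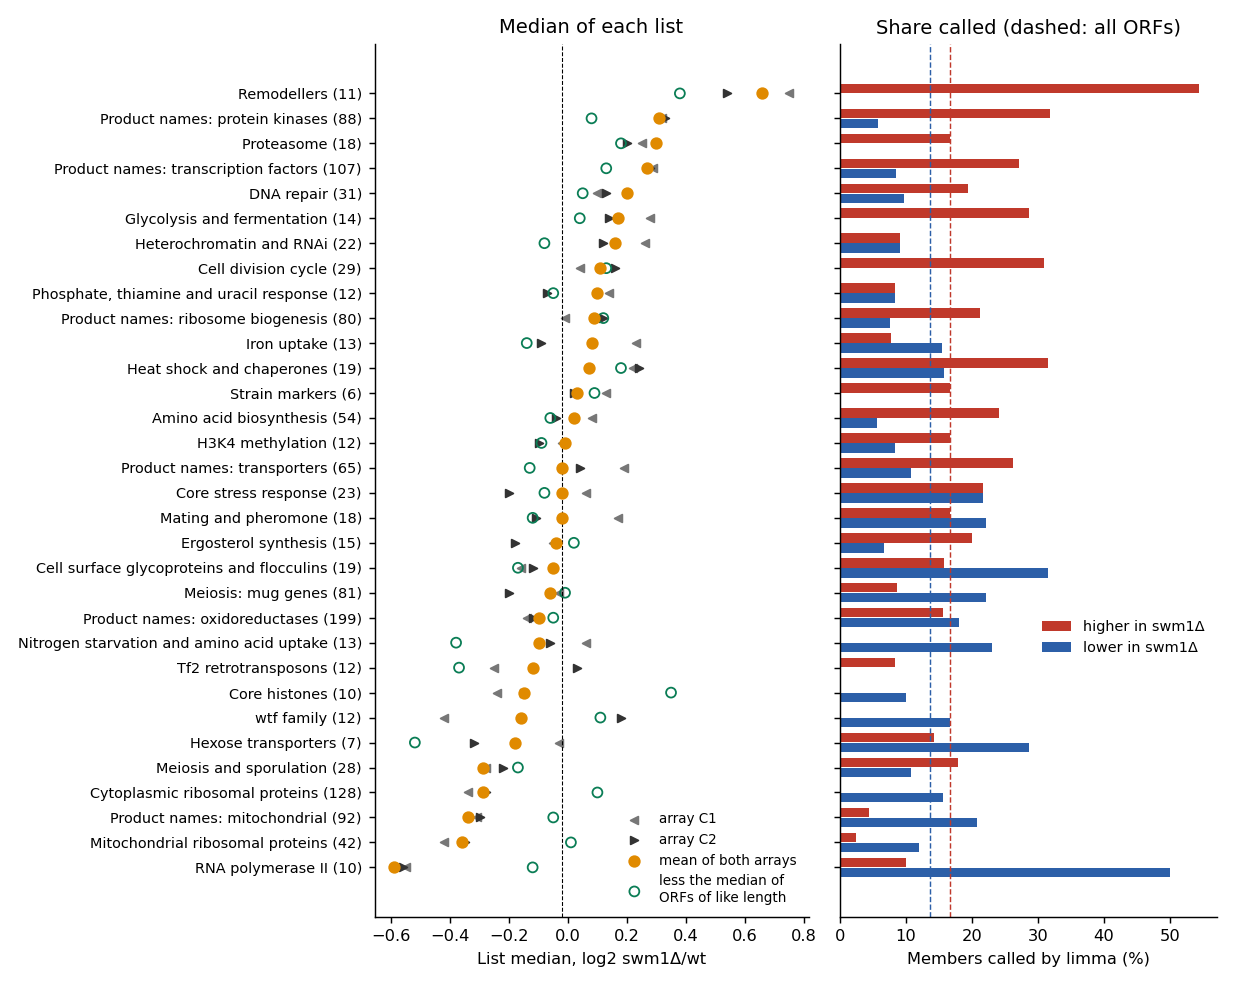
For each list of at least 6 measured ORFs (number in brackets), the left panel gives the median log2 ratio of swm1Δ over wt on C1, on C2, for their mean and less the median of ORFs of like length, and the right panel the percentage of members that limma called higher (red) or lower (blue) in swm1Δ, with dashed lines for all ORFs. Remodellers stand at the top with 54.5% higher and 0% lower, and RNA polymerase II subunits at the bottom with 50% lower.

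The change over an ORF was only weakly shared by the IGR of the same name, which the labels give as samples of their own on slides of the same number, so that ORF and IGR share their chromatin. Over the 4407 ORFs with an IGR of the same name the Pearson correlation of the mean ORF ratio with the IGR ratio was 0.11 for C1 and 0.16 for C2, beside 0.36 between the IGR arrays themselves, all as descriptions across features. Outside the chromosome III window, 137 raised ORFs had an IGR; its median was −0.03 on C1 and 0.04 on C2, and 61 and 73 of the 137 IGRs lay above 0, beside 2184 and 2120 of 4407 for all ORFs. For bip1 the IGR gave 0.05 and 0.00, and for pfk1 −0.38 and −0.06. The chromosome III window differed from this. Its 23 IGRs had medians of 0.98 and 1.21, with 23 and 21 of them above 0. The IGRs of the 90 lowered ORFs with one had medians of −0.22 and −0.30, and those of the chromosome II window −0.69 and −1.24, with 5 and 1 of 20 above 0.

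Apart from the deleted swm1 (IGR −2.39 and −2.29), the raised and lowered ORFs whose IGR moved furthest in the same direction on both arrays were a small set. The sequence before the gene start is shown for 2 of each, chosen because the IGR of the same name moved with the ORF. The IGR of mug108, a gene found as raised in meiosis, gave 1.97 and 2.06 (ORF 1.34 and 1.26), and that of SPCC1393.12 gave 1.42 and 1.73. The IGR of pfl7 gave −2.69 and −3.44, and that of SPAC186.06, annotated as an isomerase and lowered with −1.48 and −1.63 over an ORF next in name to the raised SPAC186.07c, gave −2.06 and −1.70. The 250 bases before each RefSeq gene start are printed 5′ to 3′ on the strand of the gene, in the ASM294v3 assembly at chrI:5124266-5124515 (plus strand, mug108), chrIII:823192-823441 (plus strand, SPCC1393.12), chrII:119329-119578 (minus strand, pfl7), chrI:5541782-5542031 (plus strand, SPAC186.06). On which side of the ORF a same-named IGR probe lies, and whether it covers these bases, is not given in the sources used here. The IGR change may therefore lie after the gene and not before it. Capitals mark TGACGT or GTAAACA on either strand, the core sequences of the sites bound by Atf1, a factor of the stress response, and Mei4, a factor of meiosis.
mug108: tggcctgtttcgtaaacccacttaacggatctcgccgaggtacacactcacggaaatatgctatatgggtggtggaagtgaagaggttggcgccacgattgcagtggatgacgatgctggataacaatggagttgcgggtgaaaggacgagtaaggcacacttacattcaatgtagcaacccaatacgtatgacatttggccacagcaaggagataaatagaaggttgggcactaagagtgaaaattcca
SPCC1393.12: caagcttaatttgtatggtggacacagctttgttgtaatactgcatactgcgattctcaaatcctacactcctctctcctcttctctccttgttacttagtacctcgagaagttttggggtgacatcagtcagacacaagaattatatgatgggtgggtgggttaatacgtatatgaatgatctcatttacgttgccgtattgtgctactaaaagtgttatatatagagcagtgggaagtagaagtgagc
pfl7: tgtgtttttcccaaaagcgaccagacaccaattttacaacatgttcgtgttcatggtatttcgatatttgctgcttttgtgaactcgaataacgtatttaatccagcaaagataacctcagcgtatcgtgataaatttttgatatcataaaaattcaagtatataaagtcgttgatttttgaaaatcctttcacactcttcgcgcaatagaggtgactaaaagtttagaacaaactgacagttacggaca
SPAC186.06: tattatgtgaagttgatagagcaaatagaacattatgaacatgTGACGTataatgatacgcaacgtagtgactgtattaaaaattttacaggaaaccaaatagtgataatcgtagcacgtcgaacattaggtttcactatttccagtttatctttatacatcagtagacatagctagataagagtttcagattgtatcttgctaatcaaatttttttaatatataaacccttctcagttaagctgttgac

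Of the 4 sequences, that of SPAC186.06 held TGACGT once and none held GTAAACA. Over windows of 250 bases before to 50 bases after the gene start, searched on both strands, TGACGT was in 11 of 149 promoters of raised ORFs (7.38%) and 9 of 92 of lowered ORFs (9.78%), beside 273 of 4572 of all ORFs (5.97%). GTAAACA was in 27 of 149 promoters of raised ORFs (18.1%) and 14 of 92 of lowered ORFs (15.2%), beside 759 of 4572 (16.6%). A match of letters is a description and not a bound site.

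H3K9me2, dimethylated lysine 9 of histone H3, was measured over the same ORFs on 2 arrays other than C1 and C2. Both set swm1Δ against wt, and their ratios hardly correlated with each other (Pearson −0.06 over 4881 ORFs). Fewer of their ORF spots reached 2 times background in both dyes than on C1 and C2. The shares were 73.43% and 73.55% on the first array and 85.93% and 86.19% on the second, against at least 99.06% on C1 and C2. On the second of them the chromosome III window had a median of 0.98, with 21 of 25 ORFs above 0, and the chromosome II window one of −0.08. On the first, whose dye label differs between the ORF and IGR parts of the slide, the windows had medians of −1.09 and −0.65 by its own label, and the sign of these values is unsettled. Raised and lowered ORFs had medians of 0.07 and 0.05 on the second array, beside −0.01 for all ORFs, and of −0.14 and −0.31 on the first by its own label, beside −0.12.

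The place of a spot on the slide moved with the ratio as well. The medians of the 48 print blocks lay between −0.34 and 0.34. Print blocks lay in 4 columns, whose medians were −0.18, −0.04, 0.06 and 0.07. The columns held 26, 32, 64 and 38 raised ORFs and 46, 23, 22 and 11 lowered ORFs, at like coding lengths (medians 1146 to 1194 bases). With the median of each block set to 0, 138 ORFs were raised, 108 of them among the 160, and 91 were lowered, 70 of them among the 102.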

How the data were processed

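H3K4me2 in swm1Δ and wt cells was compared on arrays C1 and C2, which the study's methods describe as independent ChIP samples with swapped dyes. The authors deposited uncorrected scanner output per array, from which the median intensity of a spot and that of its local background were read in either dye. A series table that the authors deposited holds log2 ratios after their own Lowess normalization, and it was used as an alternative only (5 of its columns were not matched to a sample and not read). Columns with the authors' own comparisons were not used.

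Intensities were background corrected with normexp (offset 50) and loess normalized within each scanner file with control features at weight 0, in R 4.3.3 with limma 3.58.1, and turned to swm1Δ over wt by the dye labels. Spots that the scanner file marked were kept (23 to 38 ORF spots per file), and leaving out spots under 2 times background was an alternative. Between 99.06% and 99.36% of ORF spots per file had at least 2 times background in both dyes, and 73 to 83 were saturated in Cy5. The spots of an array were averaged. ORFs were raised or lowered at a ratio of 2.0 in 3 of 4 data points, and limma (lmFit, eBayes, two-sided, 1 residual degree of freedom) tested the means against 0 with Benjamini-Hochberg adjustment at 0.05 over 4881 ORFs. With 2 arrays the precision is limited, and a median standard error of 0.23 made 0.59 the smallest mean that was called.

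RefSeq names (ASM294v3) matched 4612 ORFs; they gave names, order, coding length and promoters, and no place of a probe, since no genome build is given in the sources used here. Coding length replaced a planned protein length. In 18 genes, a pair of features were kept as separate ORFs, which could differ: in 12 genes the means had opposite signs, as for cut4 (−0.81 and 0.75). Tables used Python 3.11.15, numpy 2.4.6, pandas 2.3.3 and matplotlib 3.10.9. Genes named are the Swm1/2 complex, the 12 most raised and 12 most lowered ORFs, those of the extreme windows and up to 4 members of each of 33 lists with the largest change. Some of these are not reported here. The members, lists and rules were chosen with earlier results of these data known. After the files were read, a wrongly assigned Set1 complex gene was replaced in its list and the ribosomal lists were restricted to products that name a ribosomal protein.

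Tested on simulated arrays of 4881 ORFs with 200 changed, limma recovered 100 of 100 at a log2 change of 1.5 and the cut-off 84, and both recovered 100 of 100 at 2.5, while limma called 8 unchanged ORFs. The simulated noise was normal with the same spread for every ORF. No trend with coding length, print block or dye and no normalization step was put in. The recovery and the false calls on the real arrays, where such trends were present, are therefore not given by it. Alternatives were other background corrections, centring, cut-offs, numbers of data points, deposited ratios and each array left out.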

Additional observations from a re-analysis of the deposited data

Results flagged for a closer look

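Among the 870 control features, which no comparison used, 22 of the 33 features named Ef1-b passed the cut-off of a ratio of 2.0 in 3 of 4 data points as raised in swm1Δ, a signal outside the ORFs measured. All 33 lay above 0 on both arrays, with means between 0.83 and 1.62 and a median of 1.23 (1.07 on C1 and 1.37 on C2). They were spread over 32 print blocks, and their SD over features was 0.18. Of the other controls, 5 were raised, 3 of them features named as dilutions of Ef1-b and 2 named for E. coli or as empty. No explanation of these values was tested.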

How the results depend on the processing

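No paired analysis was possible because each array already holds the ratio of swm1Δ to wt and no test between groups of arrays was run. Raised ORFs numbered 160 and lowered ORFs 102. With a cut-off of 1.5 there were 595 and 487, and with all 4 data points required 101 and 57. Leaving out an array gave 241 to 290 raised and 156 to 218 lowered ORFs by both spots of the other, and no limma test, since no residual degree of freedom was left. With median centring in place of loess the counts were 180 and 83. With no background correction and median centring, limma called 133 ORFs higher and 46 lower, against 813 and 668. Setting the median of each coding length class to 0, an alternative chosen after seeing the data as was setting print block medians to 0, left 67 ORFs raised and 100 lowered by the cut-off, and 241 higher and 315 lower by limma among 4594 ORFs. It also turned the sign of the median of 9 of the 33 lists: heterochromatin and RNAi (−0.08), core histones (0.35), cytoplasmic (0.10) and mitochondrial (0.01) ribosomal proteins, iron uptake (−0.14), phosphate, thiamine and uracil response (−0.05), amino acid biosynthesis (−0.06), ergosterol synthesis (0.02) and wtf (0.11). The value after this step covers only members with a coding length, which were 5 of 12 for wtf and 118 of 128 for cytoplasmic ribosomal proteins. For wtf the turn thus compares unlike sets of ORFs. The list of nitrogen starvation and amino acid uptake, at −0.10, had a median of 0.21 in the deposited ratios and of 0.08 with print block medians set to 0. Over the 174 named ORFs with median centring, no background correction, deposited ratios or print block medians set to 0, 572 values had an unaltered call, 104 lost it and 13 gained one, with no reversal. The direction and call of the swm1 ORF held under each of these settings. Dim spots limited little, since their removal left 160 raised and 101 lowered ORFs.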
